A study of Mus musculus with 13 samples.

Results

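Cadherins and the transcription factors of epithelial-mesenchymal transition (EMT) were followed here in basal cell carcinoma (BCC) tumors of mice, through 10 genes chosen by symbol: the cadherin genes Cdh1, Cdh2 and Cdh3, the adhesion gene Epcam, the intermediate filament gene Vim, and the factors Zeb1, Zeb2, Snai1, Snai2 and Twist1. All 10 were found among the 21100 genes of the table, and all 10 passed the filter on low counts, with at least 10 counts in every tumor. Poly(A) RNA had been sequenced from 13 tumors, 9 of a genetically engineered model (GEM-BCC) and 4 of a transplanted model (Tp-BCC), to compare the expression of the models. Total expected counts were 28075317 to 32629102 per GEM-BCC tumor but only 15388027 to 17494912 per Tp-BCC tumor.

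GEM-BCC tumors grew intradermally in 7 female mice of the genotype Ptch1+/- K14-CreER2 p53fl/fl after 3 injections of 300 µg tamoxifen and X-rays of 4 Gy. K14-CreER2 is the spelling of the labels, and the paper writes K14-CreERT2. The K14 promoter drives the recombinase, so p53 is deleted in cells that use this keratin promoter and their descendants, while every cell carries the Ptch1 allele. Tumors GEM2 and GEM3 shared a mouse, as did GEM7 and GEM8. Tp-BCC tumors grew under the skin of the right flank of 4 female Ptch1+/-p53fl/fl mice after inoculation of 2000000 cells. All of them descend from a single GEM-BCC tumor whose cells had been passaged in mice, so they sample 1 tumor of origin in 4 hosts. Ages were not given in the sources used here. The labels assign GEM-BCC libraries to batch 1 and Tp-BCC libraries to batch 2, so that model and batch cannot be told apart in any comparison that follows.

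Classical cadherins hold neighbouring cells together at adherens junctions, where their cytoplasmic tails bind catenins. In EMT, epithelial cells lose E-cadherin and other adhesion molecules and take up vimentin and often N-cadherin. Factors of the Snail, Zeb and Twist families drive this program, and Snail and Zeb proteins repress E-cadherin by binding E-box sequences in its promoter. In skin, basal keratinocytes carry both E-cadherin and P-cadherin, and fibroblasts express many of the mesenchymal genes without having been epithelial.

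The tissue label was checked against keratinocyte markers (Krt5, Krt14, Krt15, Krt17, Trp63, Itga6, Itgb4 and Col17a1). Their summed level was 11879 to 18134 CPM (counts scaled to an equal library size) in GEM-BCC tumors, and 9027, 16560, 8476 and 21137 CPM in TP1 to TP4, with Krt5 the most abundant and no marker at 0 in any tumor. Krt15 was the marker that fell, by 4.03 on the log2 scale (SE 0.56, edgeR adjusted p = 2.08e-04), and Col17a1 rose by 2.00 (SE 0.50, adjusted p = 0.0120).

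The Tp-BCC libraries stood apart from each other by base composition. Across 14272 genes, which are not independent replicates, Spearman rho between the log2 CPM of a tumor, relative to the mean of all tumors, and the GC content of the transcripts was −0.390 in TP1 and −0.472 in TP3, but 0.593 in TP2 and 0.590 in TP4. Among GEM-BCC tumors the coefficient was positive in GEM1 (0.364) and ran from −0.311 to −0.150 in the rest. Among the 2465 tested genes with a GC content below 45%, the median log2 CPM relative to the GEM-BCC mean was 0.17 in TP1 and 0.44 in TP3 against −1.36 in TP2 and −1.44 in TP4. Among the 4162 genes with 55% or more it was −0.15 and −0.18 against 0.57 and 0.83. TP2 and TP4 thus showed GC-poor transcripts low and GC-rich transcripts high, and the members lie on both sides: Snai2 has 42.6% GC, Zeb1 46.1%, Cdh2 47.0% and Zeb2 48.8%, Cdh1 51.9%, Cdh3 52.1% and Vim 53.9%, and Epcam 57.2%, Twist1 59.3% and Snai1 59.8% (median over the protein-coding transcripts of each gene, 51.1% over all genes). For Zeb2 and Epcam the value depends on the transcript, being 40.6% and 52.7% for the longest. Results of the members are therefore given for all tumors, without TP2 and TP4, without TP1 and TP3, and with the GC trend of each tumor removed. Fold changes of other genes are from the fit to all tumors. What part base composition had in each difference was not tested beyond these values.

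Across all tumors 2 of the 10 genes, Snai1 and Twist1, had an adjusted p under 0.05, a share close to the 19.4% of all 14390 genes tested. A gene was called where its absolute log2 fold change also exceeded 2, and 0 of the 10 were called by edgeR, against 5.57% of all genes. DESeq2 likewise called 0, and 3 of the 10 had an unadjusted edgeR p under 0.05. The median log2 fold change of the 10 genes (Tp-BCC over GEM-BCC) was 0.41, against −0.03 over all genes tested, and 7 were above 0. Both counts describe the chosen genes and set them apart from no others.

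**Figure D1:**
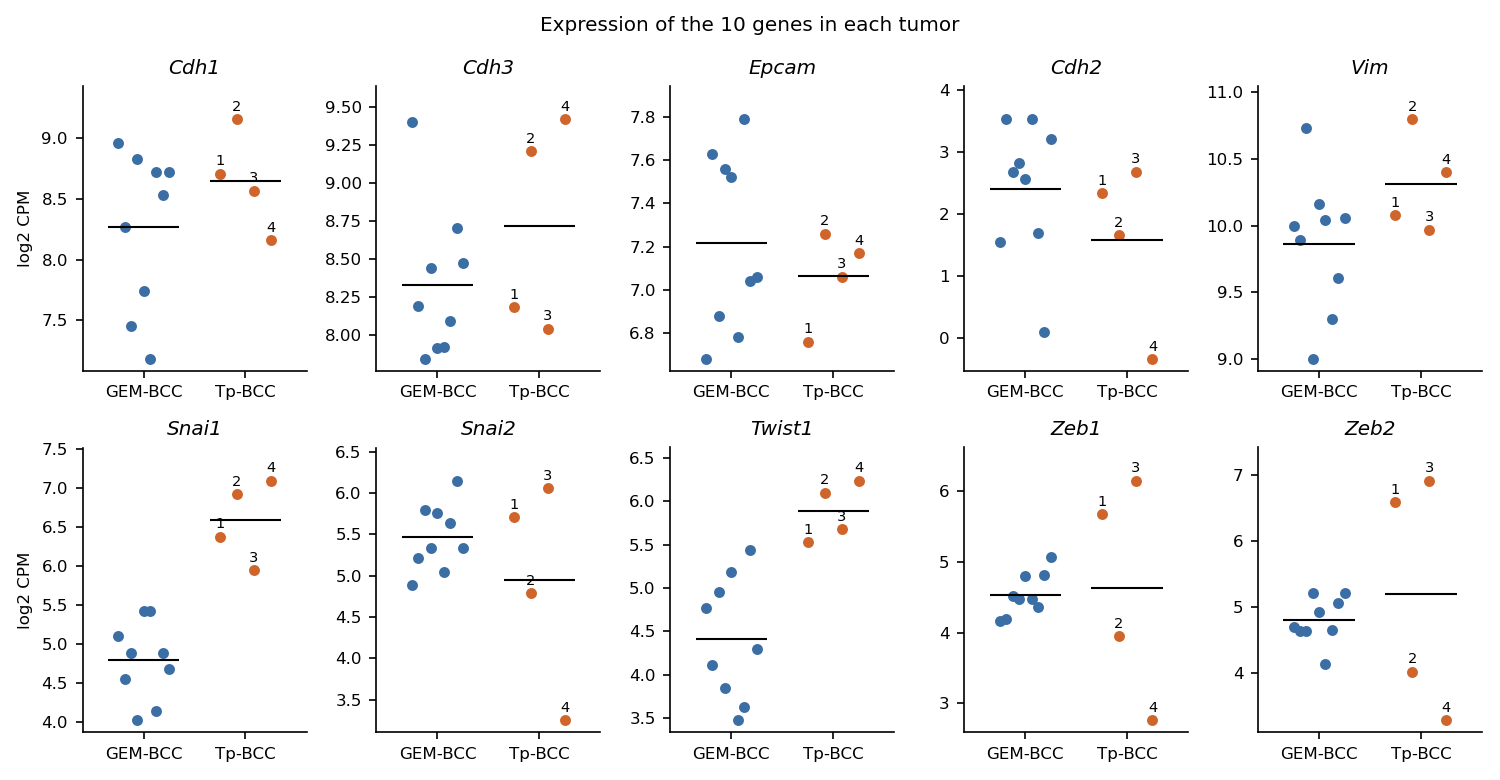
Log2 CPM of each gene (vertical axis) in the 9 GEM-BCC tumors (blue) and the 4 Tp-BCC tumors (orange, numbered 1 to 4 for TP1 to TP4), with the mean of each model as a line; each panel has its own scale. Snai1 and Twist1 are higher in all 4 Tp-BCC tumors than in any GEM-BCC tumor, while Zeb1 and Zeb2 are above the GEM-BCC range in TP1 and TP3 and below it in TP2 and TP4.

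Snai1, which encodes the zinc finger repressor Snail, had 16.2 to 43.0 CPM in GEM-BCC tumors, with a median of 29.6. In TP1 to TP4 it had 83.4, 122, 61.7 and 137 CPM. Every Tp-BCC tumor was above every GEM-BCC tumor, as was the case for 5.50% of all genes tested. The log2 fold change was 1.80 (SE 0.27, edgeR adjusted p = 4.35e-04, exact 2-sided permutation p = 0.00140, the smallest that 4 of 13 tumors can give). Both tests took tumors of the same mouse as separate. With counts summed per mouse the log2 fold change was 1.75 (edgeR adjusted p = 0.00147). It was 1.38 with the GC trend removed (adjusted p = 6.40e-04), 1.32 without TP2 and TP4 (adjusted p = 0.0194) and 2.16 without TP1 and TP3 (adjusted p = 1.74e-04). The change of Snai1 thus passed the test in both pairs of Tp-BCC tumors and was smaller once base composition was taken into account.

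Twist1, a basic helix-loop-helix factor, had a median of 19.5 CPM in GEM-BCC tumors, with 43.3 CPM in the highest (GEM8) and 368 counts in the lowest (GEM6). The 4 Tp-BCC tumors had 46.2, 68.3, 51.4 and 75.6 CPM. Here too all Tp-BCC tumors exceeded all GEM-BCC tumors, although GEM8 came near TP1. The log2 fold change was 1.36 (SE 0.33, adjusted p = 0.0109, exact permutation p = 0.00420). With counts summed per mouse it was 1.41 (adjusted p = 0.00581). With the GC trend removed it was 1.00 (adjusted p = 0.0322), and the groups then overlapped, with a corrected log2 CPM of up to 5.53 for GEM-BCC and as low as 5.22 for Tp-BCC. Without TP2 and TP4 it was 1.05 and no longer passed the test (adjusted p = 0.126), and without TP1 and TP3 it was 1.61 (adjusted p = 0.00655).

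Zeb1 and Zeb2 encode zinc finger homeobox repressors. Zeb1 had 17.8 to 33.5 CPM in GEM-BCC tumors (median 22.2), and 51.0 and 70.7 CPM in TP1 and TP3 but 15.4 and 6.71 CPM in TP2 and TP4. Zeb2 had 17.4 to 37.3 CPM in GEM-BCC tumors (median 25.8), then 96.1 and 121 CPM in TP1 and TP3 against 16.2 and 9.64 CPM in TP2 and TP4. Both genes were thus above the whole GEM-BCC range in one pair of Tp-BCC tumors and below it in the other, a pattern shared by 291 of the 14390 genes tested (2.02%), whose median GC content was 44.0%.

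Over all tumors the log2 fold change of Zeb1 was 0.61 (SE 0.42, adjusted p = 0.317) and that of Zeb2 1.10 (SE 0.47, adjusted p = 0.109). The mean log2 CPM differed by only 0.10 for Zeb1 (exact permutation p = 0.866) and by 0.41 for Zeb2 (exact permutation p = 0.533). Their direction depended on the tumors used. Without TP2 and TP4 the values were 1.36 (adjusted p = 0.00303) and 1.93 (adjusted p = 2.74e-04), and without TP1 and TP3 they were −1.09 (adjusted p = 0.0197) and −1.13 (adjusted p = 0.0117). With the GC trend removed, Zeb1 had 0.67 (adjusted p = 0.0909) and Zeb2 1.12 (adjusted p = 0.0584). With the GC content of the longest transcript in its place, an alternative chosen after the GC values had been seen, Zeb2 had 1.03 and passed the test (adjusted p = 0.0259), while Zeb1 did not (0.65, adjusted p = 0.113). Which definition of GC content was used therefore decided whether Zeb2 passed after that correction. Zeb2 also passed with a correction for transcript length, added after seeing the data (1.10, adjusted p = 0.0301). Spearman rho with transcript length was 0.198 in TP1 and 0.245 in TP3, and −0.145 in TP2 and −0.332 in TP4. Among GEM-BCC tumors it ran from −0.414 (GEM3) to 0.382 (GEM9).

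Snai2, the gene of the repressor Slug, had 29.6 to 70.7 CPM in GEM-BCC tumors (median 40.5), and 52.2, 27.5, 66.7 and 9.42 CPM in TP1 to TP4. TP1 and TP3 lay within the GEM-BCC range and TP2 and TP4 below it. The log2 fold change was −0.23 (SE 0.38, adjusted p = 0.702), and 0.01 with the GC trend removed. It was −1.30 without TP1 and TP3 (adjusted p = 0.0202) and 0.38 without TP2 and TP4 (adjusted p = 0.410).

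With the GC trend removed 2 of the 10 genes passed, against 27.1% of all genes, and 3 with the GC content of the longest transcript, against 27.3%. Without TP2 and TP4 the number was 3 (Zeb1, Zeb2 and Snai1), with 10.4% over all genes. Without TP1 and TP3 it was 6, with 42.9% over all genes, of which Snai1, Twist1 and Cdh3 were higher and Zeb1, Zeb2 and Snai2 lower.

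**Figure D2:**
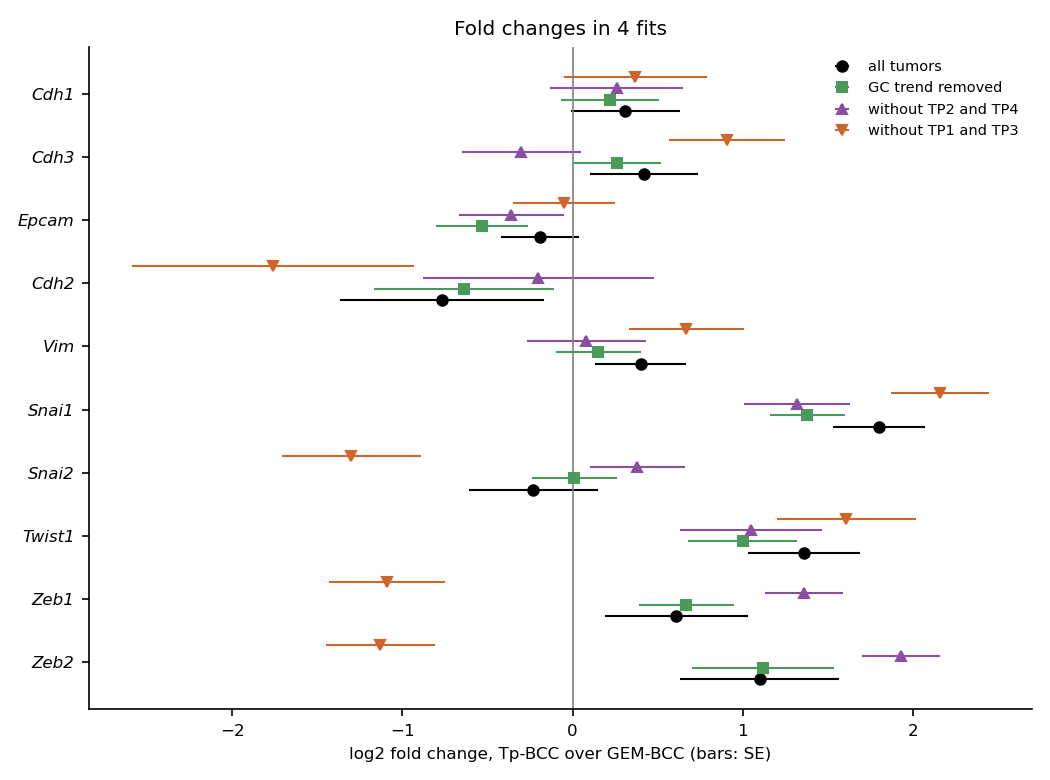
Log2 fold change of Tp-BCC over GEM-BCC (horizontal axis, bars are the SE) for each gene from the edgeR fit to all tumors, with the GC trend of each tumor removed, without TP2 and TP4, and without TP1 and TP3. Snai1 and Twist1 are above 0 in each of the 4 fits, whereas Zeb1 is at 1.36 without TP2 and TP4 and at −1.09 without TP1 and TP3.

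**Figure D3:**
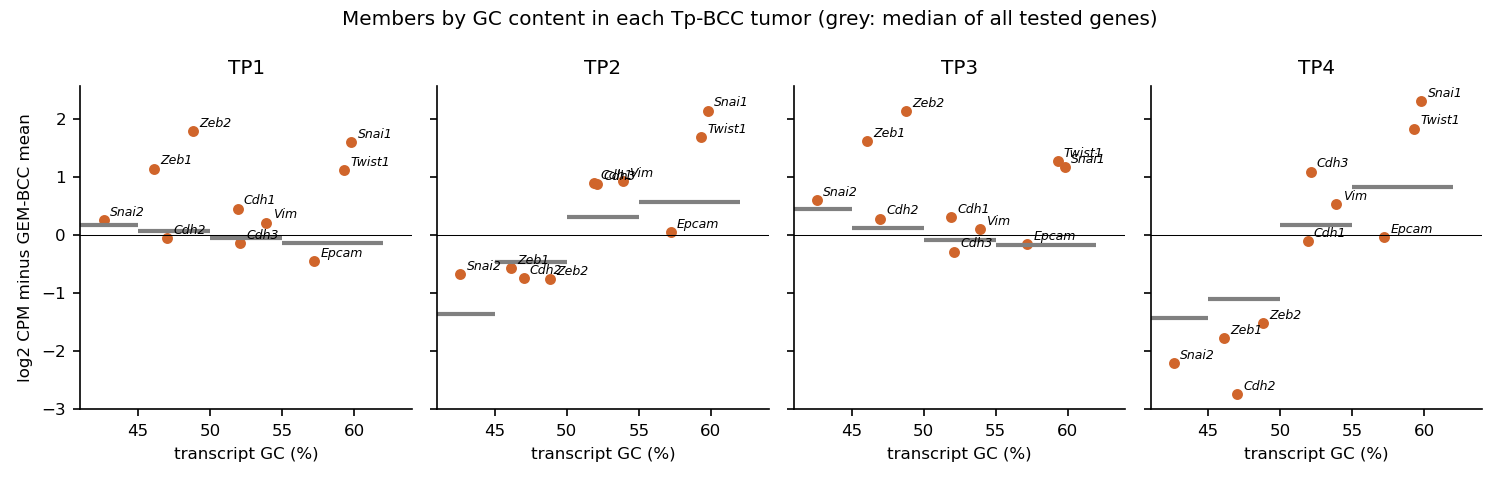
Log2 CPM of each gene minus its GEM-BCC mean (vertical axis) against the median GC content of its transcripts in percent (horizontal axis) in TP1 to TP4; grey lines are the medians of all tested genes below 45%, from 45 to 50%, from 50 to 55% and from 55%. In TP4 the GC-poor genes reach −2.75 (Cdh2) and the GC-rich Snai1 2.31, while in TP1 and TP3 Zeb1 and Zeb2 stand above the grey lines.

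Among the epithelial adhesion genes, Cdh1, which encodes E-cadherin, had 145 to 498 CPM in GEM-BCC tumors (median 369) and 419, 572, 380 and 286 CPM in TP1 to TP4. The groups overlapped, with TP2 alone above the GEM-BCC range. The log2 fold change was 0.31 (SE 0.32, adjusted p = 0.509), 0.22 with the GC trend removed, 0.26 without TP2 and TP4 and 0.37 without TP1 and TP3. Cdh1 was lowest in GEM6 and GEM3 rather than in any transplanted tumor.

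Cdh3, which encodes P-cadherin, had 229 to 675 CPM in GEM-BCC tumors with a median of 293, the highest in GEM1. TP2 and TP4 had 593 and 686 CPM, the latter above every GEM-BCC tumor, and TP1 and TP3 had 290 and 263 CPM. The fold change of 0.42 (SE 0.32, adjusted p = 0.359) was −0.30 without TP2 and TP4 (adjusted p = 0.617) and 0.91 without TP1 and TP3 (adjusted p = 0.0423). With the GC trend removed it was 0.26 (adjusted p = 0.480). Epcam, an adhesion molecule of simple epithelia and of BCC cells, had 103 to 221 CPM (median 133) in GEM-BCC tumors, and TP1 to TP4 with 108, 153, 133 and 144 CPM were all inside this range. Its fold change on the log2 scale was −0.19 (SE 0.23, adjusted p = 0.584), and −0.53 with the GC trend removed (adjusted p = 0.159). It was −0.36 without TP2 and TP4 (adjusted p = 0.477) and −0.05 without TP1 and TP3 (adjusted p = 0.911).

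Among the mesenchymal genes, Vim had 511 to 1701 CPM (median 1022) in GEM-BCC tumors and 1079, 1781, 1002 and 1349 CPM in TP1 to TP4. On the log2 scale it differed by 0.40 (SE 0.27, adjusted p = 0.311), by 0.15 with the GC trend removed, by 0.08 without TP2 and TP4 and by 0.67 without TP1 and TP3 (adjusted p = 0.122). Cdh2, which encodes N-cadherin, was low everywhere, with 31 to 384 counts per GEM-BCC tumor (median 6.33 CPM) and 5.00, 3.09, 6.34 and 0.714 CPM in TP1 to TP4. Its log2 fold change of −0.77 (SE 0.60, adjusted p = 0.380) has the widest error of the 10. It was −0.64 with the GC trend removed, −0.20 without TP2 and TP4 and −1.76 without TP1 and TP3 (adjusted p = 0.103), and the lowest Tp-BCC value was that of TP4 with 10 counts. Neither gene differed beyond the spread between tumors, and a miss of the threshold does not show that the levels were equal.

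Levels of different genes were set side by side as CPM per kilobase of the longest transcript. In GEM-BCC tumors the medians were 466 for Vim, 83.3 for Cdh1, 66.7 for Cdh3 and 65.3 for Epcam, and among the factors 20.1 for Snai2, 18.3 for Snai1, 12.0 for Twist1, 3.82 for Zeb1 and 2.83 for Zeb2, with Cdh2 lowest at 1.31. The ranges of Cdh1 (32.7 to 112), Cdh3 (52.2 to 154) and Epcam (50.2 to 109) overlap, as do those of Snai2, Snai1 and Twist1 and those of Zeb1 and Zeb2, so the order within each of these sets is not settled. The range of Cdh2 (0.204 to 2.37) also overlaps that of Zeb2 (1.90 to 4.09), and that of Snai2 (up to 35.0) overlaps that of Cdh1. These ranks are not settled either. In Tp-BCC tumors Snai1 had a median of 63.3 and Twist1 of 36.8 CPM per kilobase, above the 19.7 of Snai2. Snai1 thus stood highest of the factors by median in the transplanted tumors, although its range (38.1 to 84.8) overlaps that of Twist1 (28.4 to 46.4). The order depends on the transcript chosen: by median instead of longest transcript length, the GEM-BCC median was 24.6 for Zeb1 and 14.7 for Zeb2, the Tp-BCC median of Epcam was 105, and 7 of 20 ranks stayed the same.

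Of the 10 members, 5 (Vim, Zeb2, Snai1, Twist1 and Epcam) were matched to the RefSeq promoter table of build GRCm38.p6. No promoter was retrieved for Cdh1, Cdh2, Cdh3, Zeb1 and Snai2, so these were not searched. The matching left out 1 chromosome, so a missing member is not shown to lack an entry. The 250 bases before the start site were searched for CACCTG, the E-box core known to bind Snail and Zeb factors, and for its reverse complement CAGGTG. Both strands were thus covered, and 17.2% of all 32851 promoters in the table hold a match. Snai1 holds 1 match and Epcam 2, and Vim, Zeb2 and Twist1 hold none in this window. The sequences of Snai1 (chr2:167537945-167538194, + strand) and Epcam (chr17:87635729-87635978, + strand) are shown 5′ to 3′ with the E-box in capitals. They are the 2 of the 5 members searched that hold a match, a repressor and an adhesion gene. A match describes the letters only.
Snai1: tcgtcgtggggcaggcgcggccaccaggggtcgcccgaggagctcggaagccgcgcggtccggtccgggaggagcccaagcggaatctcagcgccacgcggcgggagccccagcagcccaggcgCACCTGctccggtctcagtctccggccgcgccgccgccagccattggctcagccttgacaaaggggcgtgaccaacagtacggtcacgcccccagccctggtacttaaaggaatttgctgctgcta
Epcam: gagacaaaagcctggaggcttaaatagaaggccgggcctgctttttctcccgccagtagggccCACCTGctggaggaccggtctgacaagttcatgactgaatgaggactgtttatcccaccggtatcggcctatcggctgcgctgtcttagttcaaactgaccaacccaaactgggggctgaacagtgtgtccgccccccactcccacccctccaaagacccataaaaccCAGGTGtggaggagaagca
The match in Snai1 starts at −126 and those in Epcam at −187 and −19, counted from the start site.

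Other genes of adhesion and EMT were counted in lists. Of the 9 tested among 19 other Cdh genes, 4 passed the test (44.4%, against 19.4% of all genes), all higher. Cdh9 had at most 9 counts in any GEM-BCC tumor and 24.4, 4.24, 27.7 and 15.3 CPM in TP1 to TP4. It entered the test only through the tumors where it is high, so no fold or p is given, and with 10 counts required in 10 tumors 2 of 7 tested passed (28.6%, against 17.5% of all genes). Cdh26 rose by 2.91 (SE 0.58, adjusted p = 0.00321) from a low level, at most 0.986 CPM in GEM-BCC tumors. Cdh5, the cadherin of endothelial cells, rose from 49.5 ± 13.3 to 121 ± 24.7 CPM (SD, n = 9 and 4; log2 fold change 1.29, adjusted p = 0.00116). Cdh24 rose by 1.18 (adjusted p = 0.0495), just under the threshold, with TP1 (24.3 CPM) inside the GEM-BCC range of 4.11 to 26.2. Of the list, 3 of 9 passed with DESeq2 size factors and with library size alone (against 19.1% and 17.8% of all genes). Cdh11, a mesenchymal cadherin, had 435 and 465 CPM in TP1 and TP3, above the GEM-BCC range of 68.3 to 195, and 147 and 70.2 CPM in TP2 and TP4, inside it (1.06, adjusted p = 0.0598), while Cdh13 had −0.40 (adjusted p = 0.438).

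Of the 9 atypical cadherins, all tested, 2 were higher and 2 lower (4 of 9 or 44.4%, against 19.4% of all genes; median −0.04 against −0.03). Celsr1, a planar polarity cadherin, had 51.1 to 273 CPM in GEM-BCC tumors and 1.82 to 5.71 CPM in Tp-BCC tumors, with no overlap, and fell by 5.54 on the log2 scale (SE 0.57, adjusted p = 1.26e-05). Fat3 had at most 5.91 CPM (207 counts) in GEM-BCC tumors and at most 24 counts in any Tp-BCC tumor, too few there for its fold to be given. Celsr3 had at most 15 counts in any GEM-BCC and 33 in any Tp-BCC tumor, too few for its fold to be given, and with 10 counts required in 10 tumors 3 of 8 of the list passed (37.5%, against 17.5% of all genes). Dchs1, named after its values were seen, was higher by 0.96 (SE 0.27, adjusted p = 0.0213), with 166 and 216 CPM in TP2 and TP4. TP1 (77.6) and TP3 (87.3) lay inside its GEM-BCC range of 49.0 to 103, and its GC content is 58.5%. Among the others, the abundant Fat1 (−0.04), Fat2 (−0.48) and Celsr2 (−0.24) did not pass. Among catenins and nectins 2 of 11 tested passed (18.2%, against 19.4% of all genes), both chosen after their values were seen. Nectin2 was higher by 1.38 (adjusted p = 0.00297), with 195 and 253 CPM in TP2 and TP4, but with TP1 (102) and TP3 (96.6) inside the GEM-BCC range of 41.1 to 103. Afdn, which ties nectins to actin, was lower (−1.31, adjusted p = 0.0312). Without TP2 and TP4 neither passed. The cadherin partners Ctnna1 (−0.04), Ctnnd1 (−0.12) and Jup (−0.03) had adjusted p-values of 0.809 to 0.961. Ctnnb1, which encodes beta-catenin, had 1309, 909, 1226 and 452 CPM in TP1 to TP4 against 1330 to 2130 in GEM-BCC tumors. Every Tp-BCC tumor was thus lower, TP1 only just. For Ctnnb1 as for Celsr1, the share of all genes with such a separation downward was not counted. The change of Ctnnb1 of −0.76 (SE 0.26) had an adjusted p of 0.0529. In the paper, which used DESeq2 and shrunken fold changes, Ctnnb1 was lower with an adjusted p under 0.05. With DESeq2 here 4 of 11 genes of the list passed (36.4%, against 26.0% of all genes).

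Among other EMT factors 2 of 9 tested passed (22.2%, against 19.4% of all genes), both higher. Twist2, the relative of Twist1, rose by 1.53 (SE 0.31, adjusted p = 0.00342), with 213 and 196 CPM in TP1 and TP3, near the GEM-BCC maximum of 212, and 388 and 467 CPM in TP2 and TP4. Tcf3, an E protein that pairs with Twist factors, rose by 0.69 (SE 0.23, adjusted p = 0.0477) through TP2 and TP4 (241 and 305 CPM). TP1 and TP3 had 132 and 127 CPM, inside the GEM-BCC range of 106 to 172, and its GC content is 61.5%. The adjusted p of Tcf3 lay just under the threshold. Of the list, 1 gene passed with DESeq2 size factors, without a filter and with 10 counts in 10 tumors (against 19.1%, 17.2% and 17.5% of all genes). Tcf4 (0.47, adjusted p = 0.361) and Sox4 (−0.51, adjusted p = 0.158) did not pass in the fit to all tumors. Of 12 epithelial identity factors tested, 4 were lower and 1 higher (41.7%, against 19.4% of all genes). Grhl3 had at most 6 counts and Ovol1 and Ehf at most 2 counts in any Tp-BCC tumor, against maxima of 383, 219 and 182 counts in GEM-BCC tumors. These 3 entered the test only through the tumors where they are high, so no p is given, and with 10 counts required in 10 tumors 2 of 8 tested passed (against 17.5% of all genes). Grhl1, named after its values were seen, fell by 1.88 (adjusted p = 0.0108), with all 4 Tp-BCC tumors (at most 16.2 CPM) inside the GEM-BCC range of 8.38 to 96.3. Klf4, a factor of epidermal differentiation that is also expressed outside epithelia, rose by 1.57 (SE 0.19, adjusted p = 5.72e-05), while Grhl2 (−0.10, adjusted p = 0.838), Esrp1 (−0.91, adjusted p = 0.0642) and Trp63 (−0.83, adjusted p = 0.112) did not pass.

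Of 12 EMT-associated mesenchymal genes 2 rose and 2 fell (33.3%, against 19.4% of all genes), with a median of −0.22 against −0.03. Fn1, which encodes fibronectin, had 76.6 to 232 CPM in GEM-BCC tumors and 1079, 1927, 1057 and 1801 CPM in TP1 to TP4, higher by 3.17 on the log2 scale (SE 0.26, adjusted p = 1.32e-06). Tnc, which encodes tenascin C, moved the other way, with 43.8 to 1506 CPM in GEM-BCC tumors and at most 19.2 CPM in any Tp-BCC tumor (log2 fold change −5.06, SE 0.82, adjusted p = 7.00e-04), and Tgfbi fell by 3.23 (adjusted p = 0.00313). Sparc (−0.71), Mmp14 (0.11) and Cd44 (−0.88), abundant in both models, had adjusted p-values of 0.120 to 0.811. Genes of the list thus moved in both directions, and Itga5, chosen after its values were seen, rose by 1.58 (adjusted p = 0.00153).

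Several members are expressed by stromal cells, so marker levels are given beside them. In a bulk tumor fewer cells of a type and less RNA per cell cannot be told apart. The 10 fibroblast markers, most abundant Col1a2 in GEM-BCC and Col3a1 in Tp-BCC, summed to 13161 to 50387 CPM in GEM-BCC tumors and to 16877, 24119, 17186 and 29148 CPM in TP1 to TP4, within the GEM-BCC range. This sum is mostly collagen, and single markers moved in both directions: Pdgfra (2.14), Fap (1.83), Pdgfrb (1.25) and Thy1 (1.23) were higher and Col1a1 (−1.12) lower past the test. The models overlapped in Pdgfra, Fap, Thy1 and Col1a1. Pdgfra had 1562 and 1552 CPM in TP1 and TP3 but 245 CPM in TP4, inside the GEM-BCC range of 181 to 399. The adjusted p of Col1a1 (0.0497) lay just under the threshold. The 10 macrophage markers, most abundant Lyz2, summed to 85.1 to 439 CPM (median 182) in GEM-BCC tumors, and to 260, 229, 260 and 455 CPM in TP1 to TP4. By flow cytometry, which counts cells rather than RNA, the paper found a lower percentage of tumor-associated macrophages in Tp-BCC tumors. The 8 endothelial markers, most abundant Pecam1 in GEM-BCC and Cdh5 in Tp-BCC, summed to 96.2 to 257 CPM, and were above that range in TP1 to TP4 with 343, 422, 344 and 368 CPM. No marker of these lists was at 0 in any tumor, and 5 of 10 fibroblast (4 higher, 1 lower), 1 of 10 macrophage (higher) and 4 of 8 endothelial markers (all higher) passed the test between models, against 19.4% of all genes. The part of these cells in the changes of Snai1, Twist1 and the cadherins was not tested.

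Pericyte and smooth muscle markers, most abundant Cspg4, had 790 to 1409 CPM per GEM-BCC tumor and 845 to 1698 CPM per Tp-BCC tumor. Of them Des was higher in all Tp-BCC tumors than in any GEM-BCC tumor (2.91, adjusted p = 0.00302). Adipocyte markers, most abundant Lpl in GEM-BCC, summed to at most 22.0 CPM there and to 22.0, 95.5, 28.1 and 20.8 CPM in TP1 to TP4. Within this list Fabp4 was higher in every Tp-BCC tumor than in any GEM-BCC tumor (3.83, adjusted p = 2.40e-04), and Cidec, with at most 2 counts in GEM-BCC tumors, had 23.1 CPM in TP2, where Adipoq had 19.6 CPM against at most 1.90 in GEM-BCC tumors. Skeletal muscle markers summed to at most 8.82 CPM in GEM-BCC tumors, most abundant Actn3, and to 1.77, 12.0, 2.93 and 133 CPM in TP1 to TP4, with Acta1 at 79.5 CPM in TP4. Melanocyte (2.21 to 20.8 CPM over all tumors, most abundant Mitf), Schwann cell (6.48 to 51.7, Mbp) and T cell markers (0.429 to 3.80, Cd4) were low, and Plin1, Lep, Cidec, Acta1, Myh1, Myh2, Myh4, Ckm, Dct, Mlana, Sox10, S100b, Cdh19, Cd3d, Cd3e, Cd3g and Cd8a were at 0 in at least 1 tumor.

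**Figure D4:**
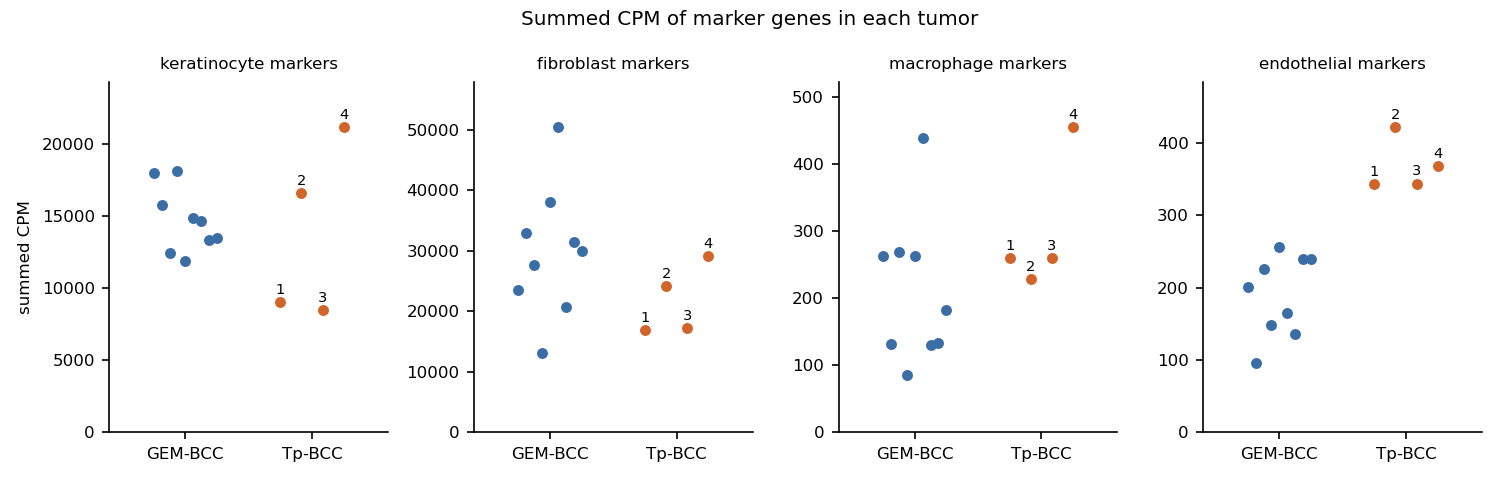
Summed CPM (vertical axis, from 0) of the keratinocyte, fibroblast, macrophage and endothelial markers in each GEM-BCC (blue) and Tp-BCC tumor (orange, numbered 1 to 4 for TP1 to TP4). Endothelial markers sum to 343 to 422 CPM in Tp-BCC tumors, above the highest GEM-BCC value of 257, and the fibroblast sum, mostly of collagens, stays within the GEM-BCC range.

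Within GEM-BCC, all in 1 batch, the mesenchymal genes were set against the fibroblast and macrophage sums over 7 mice, in 14 relations. Snai1 followed the macrophage markers, with Pearson r = 0.95 (exact permutation p = 9.92e-04, 0.0139 adjusted over the 14) and Spearman rho = 0.96 (exact permutation p = 0.00278, adjusted 0.0389). Without the 2 mice farthest from the median r was 0.91, and with the GC trend removed, a step chosen after seeing the data, it was 0.92. It was the relation of the 14 that passed the adjustment. Before it, 5 relations had an exact p under 0.05. Snai1 with fibroblast markers had r = 0.86 (p = 0.0143, adjusted 0.100; rho = 0.75, p = 0.0663), and 0.50 without the 2 farthest mice. Vim had r = 0.78 with fibroblast markers (p = 0.0379, adjusted 0.125; rho = 0.71, p = 0.0881) and r = 0.76 with macrophage markers (p = 0.0446, adjusted 0.125; rho = 0.54, p = 0.236), and 0.54 and 0.65 without those mice. Zeb2 with macrophage markers had r = −0.77 (p = 0.0429, adjusted 0.125; rho = −0.61, p = 0.167), which was −0.17 without the 2 mice. Twist1 had r = 0.03 with fibroblast (p = 0.957) and 0.00 with macrophage markers (p = 0.992), and 0.48 and 0.68 without the 2 farthest mice.

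**Figure D5:**
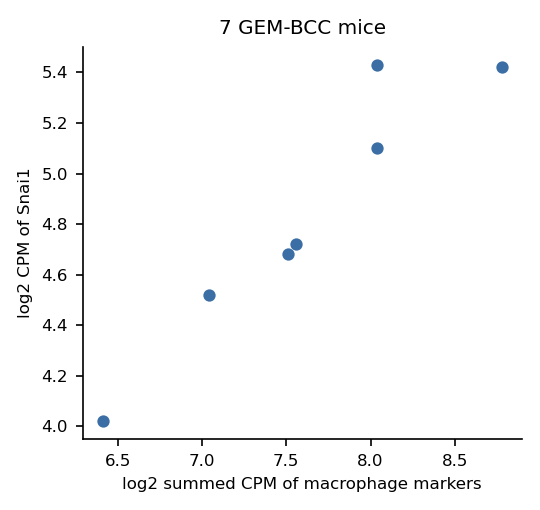
Log2 CPM of Snai1 (vertical axis) against the log2 summed CPM of the macrophage markers (horizontal axis) in the 7 GEM-BCC mice, 1 point per mouse. Snai1 runs from 4.02 in the mouse with the lowest marker sum (6.41) to 5.42 in the mouse with the highest (8.78), at r = 0.95.

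Genes most like each member were sought over the 11 mice among genes averaging 3 or more in log2 CPM, as Pearson r of the deviations from the mean of the model. For Zeb1 1287 genes had an r above 0.9, for Zeb2 1003, for Snai2 642 and for Cdh3 527, against 78 for Cdh1, 55 for Snai1, 5 for Cdh2, 4 for Vim, 2 for Twist1 and 1 for Epcam. Zeb1 was most like Igsf10, Rwdd4a and Zc3h11a, Zeb2 most like Zik1, Usp32 and Lpgat1, and Snai2 most like Gmcl1, Trim24 and Atf1, all at r = 0.99, and these 9 genes have GC contents of 40.5% to 50.8%. Over the 7 GEM-BCC mice alone their r was 0.85 to 0.98. These 7 are among the 11 mice by which the genes were picked, so this is no separate check. Cdh3 was most like Uba1, Ppp2r5d and Gna12 (0.99), Cdh1 most like Adcy7 (0.98), Itsn1 and Camsap1 (0.97), and Snai1 most like Htra3 (0.98), Sox18 and Parvb (0.97). Vim was most like Parp12, Osr1 and Foxd1 (0.91), Twist1 most like H2ax (0.94), Tnfrsf21 (0.91) and Vax2 (0.89), Cdh2 most like Mtap (0.95), Lrrc17 (0.93) and Cpq (0.91), and Epcam most like Fam163b (0.92), Asprv1 (0.88) and Cds1 (0.86).

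Among the members themselves, Zeb1 and Zeb2 had r = 0.95 over the 11 mice but 0.51 over the 7 GEM-BCC mice alone, and Zeb1 and Snai2 0.92 against 0.44. Within GEM-BCC the largest values of the 45 pairs were those of Epcam and Snai2 (0.83, but 0.08 over the 11 mice), Cdh1 and Cdh3 (0.80 and 0.51), Vim and Snai1 (0.75 and 0.77) and Cdh1 and Zeb2 (0.72 and 0.23). Cdh1 and Snai1 had −0.65 and −0.50, the opposite sign to Cdh1 and Zeb2. No p was computed for these pairs. The r of Zeb1 with Zeb2 and with Snai2 was thus higher with the Tp-BCC tumors included, whereas that of Vim and Snai1 was similar in both. Whether the values over 11 and 7 mice differ was not tested.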

How the data were processed

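The authors cleaned reads with SOAPnuke, aligned them with Bowtie2 2.3.4.3 to GRCm39 transcripts and deposited RSEM 1.3.1 expected counts per gene, not normalized. These were rounded (R 4.3.3). A gene entered the edgeR 4.0.16 test if no tumor lacked a value (16687 of 21100) and if 4 or more tumors had 10 counts or more; the fit used TMM and no covariate (robust quasi-likelihood F test), 2-sided, with Benjamini-Hochberg adjustment over all 14390 genes. The SE is the log2 fold change divided by the root of F. Log2 CPM used a prior count of 2. The script was tested on simulated data.

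GC content and lengths came from protein-coding transcripts of GENCODE vM21 (GRCm38), matched for 98.8% of genes. Each tumor's trend (lowess, span 0.3) was removed as an offset. GC content was taken as the median over transcripts. The GC content of the longest transcript was added after the GC values of the members had been seen, as were the fits without pairs of Tp-BCC tumors and the length correction. No 100-base word of a member's longest transcript was found in another gene.

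Members and lists were chosen with earlier results of these data known. Named were the members, the 4 most abundant genes of each list and up to 4 called genes with the largest change, and the 3 genes most like each member. Lists share Cdh5, Cdh19 and Trp63 with marker lists. Alternatives were DESeq2 1.42.0 and its size factors, library size, other filters, dispersions that are not robust, sums per mouse, omission of each tumor, a replicate block and missing values set to 0.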

Additional observations from a re-analysis of the deposited data

Results flagged for a closer look

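The gap of the highest or lowest tumor to its neighbour, relative to the range of its model, was examined in log2 CPM for the 10 genes and the 10 marker sums in both models. Of these 40 groups of values, 0 held a tumor far enough from the others by Dixon's ratio, a rule by which chance alone picks about 1 in 20 groups. A division of the 4 Tp-BCC tumors into pairs, as in Zeb1 and Zeb2, is not a case this ratio can find.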

How the results depend on the processing

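The number of the 10 genes past an adjusted p of 0.05 was 2 with all tumors and 2 or 3 when each tumor was left out in turn, the 3 without TP4 including Zeb2 (adjusted p = 0.0277). It was 6 without TP1 and TP3, where 1 gene was called instead of 0, and a fold threshold of 1 called 2. Snai1 changed by 1.56 to 1.97 and Twist1 by 1.18 to 1.52 with 1 tumor left out, past the threshold each time. Twist1 missed it without TP2 and TP4. The reversals were Cdh3 (−0.30 without TP2 and TP4), Zeb1 (−1.09) and Zeb2 (−1.13) without TP1 and TP3, and Snai2, with 0.01 under either GC correction, 0.38 without TP2 and TP4, and −0.61 to 0.07 with 1 tumor left out, above 0 without TP4. The causes were not tested. Fits without a pair of Tp-BCC tumors, with GC content of the longest transcript (3 genes past) and with a length correction (3 genes past) were chosen after seeing the data. Zeb2 was the gene added by both of these corrections.

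In the lists, the numbers past the threshold moved as follows, given for a selection of the settings. Over all genes the share was 19.4%, and 17.2% without a filter, 17.5% with 10 counts in 10 tumors, 19.1% with DESeq2 size factors, 26.0% with DESeq2, 27.1% and 27.3% with the GC corrections, 24.1% with the length correction, 10.4% without TP2 and TP4, 42.9% without TP1 and TP3, and 10.8% to 21.1% with 1 tumor left out. Other Cdh genes (4) gave 7 without a filter, 3 with DESeq2 size factors, 2 with 10 counts in 10 tumors, 2 without TP1 and TP3 and 2 to 4 with 1 tumor left out. Atypical cadherins (4) gave 2 without TP2 and TP4 and 2 to 5 with 1 tumor left out. Catenins and nectins (2) gave 4 with DESeq2, without TP1 and TP3, with GC content of the longest transcript and with the length correction, 0 without TP2 and TP4, and 1 to 3 with 1 tumor left out. Other EMT factors (2) gave 1 with DESeq2 size factors, without a filter, with 10 counts in 10 tumors and without TP2 and TP4, and 1 to 3 with 1 tumor left out. Epithelial identity factors (5) gave 8 with either GC correction and with DESeq2, 2 with 10 counts in 10 tumors, 3 without TP2 and TP4, and 5 to 6 with 1 tumor left out. EMT-associated mesenchymal genes (4) gave 5 with either GC correction and with the length correction. They gave 3 without TP2 and TP4, 6 without TP1 and TP3, and 4 with 1 tumor left out.

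Replicate numbers 1 to 4 occur in both models but name different mice. Deviations of same-numbered tumors from the model means correlated at −0.38, −0.12, −0.10 and −0.18, and 0 of 4 Tp-BCC tumors correlated best with their own number, so these samples share only a number. With a replicate block 178 genes of the table passed instead of 2792, with 0 of the 10 members. There Snai1 had a fold of 1.95 (log2, adjusted p = 0.106) and Twist1 of 1.47 (adjusted p = 0.203), neither smaller than without the block. Of the lists, 1 other Cdh gene, 1 atypical cadherin, 0 catenins and nectins, 0 other EMT factors, 2 epithelial factors and 1 mesenchymal gene passed. The block together with the GC correction gave 1 member (Snai1), 2, 1, 0, 0, 2 and 1, with Snai2 at 0.02.

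Of 20 mean log2 CPM values, 20 moved by less than 1 SD with a prior count of 0.5, and 7 of 20 ranks by level per length were equal with the median transcript length. Depth limits Cdh2, with 10 counts in TP4, and the list genes with few counts.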
